A study of Mus musculus with 9 samples.

Results

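Collagens, other matrix proteins and surface markers of fibroblasts were followed in the colonic mucosa of mice given a colon carcinogen, with and without butyrate in the drinking water. The set was a list of 39 genes, fixed by name. A gene was measured when the RefSeq accession of an array probe named it, which held for 36 of the 39, with 55 probes. Col6a3, Col12a1 and Lox were not analysed here. The single probe of Fbln5, a fibulin of elastic fibres, was well above background on 0 of 9 arrays, so 35 genes were tested among 21964 features (15346 of them named genes). All 35 were well above background on all 9 arrays.

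The connective tissue under the colonic epithelium is made by fibroblasts, smooth muscle cells and pericytes. Fibrillar collagens are secreted as procollagens, trimmed, and joined by lysyl oxidases into fibres that carry tension. Basement membrane collagens form the sheet beneath epithelium and vessels, elastic fibres give recoil, and small leucine-rich proteoglycans and matricellular proteins bind to fibres and to cells and tune their assembly.

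Total RNA of normal colonic mucosa from ICR mice, an outbred stock, was hybridised to 9 single-colour Agilent arrays. Every mouse, the controls included, had been injected under the skin with 1,2-dimethylhydrazine (DMH), a procarcinogen that gives rodents colon tumors, once weekly for 20 weeks at 20 mg/kg. Plain water was given to the DMH group (3 arrays). The other 6 arrays came from mice that drank 1.5% butyrate, a fermentation product that colonocytes burn and that inhibits histone deacetylases, and were titled as without tumors (3, the no-tumor group) or with tumors (3, the tumor group). A further label field gives the opposite tumor status for all 6 butyrate samples. If that field is right, the results of the no-tumor and tumor groups against DMH swap and each difference between them turns its sign. The labels give the DMH group no tumor status and give no ages. They do not say that arrays stand for separate animals, so p-values measure the spread between arrays, which may be technical.

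The no-tumor arrays and tumor array 1 lay on slide 1, tumor arrays 2 and 3 on slide 2, and the DMH arrays on slides 3 and 4, scanned on another day. Slide, scan day and treatment therefore cannot be told apart in any comparison with DMH. The 75th percentile signal was 188.0 to 444.3 on slide 1 and 739.8 to 879.8 on the other arrays. In 28.1% of all features, and in 3 of the 35 genes (Col15a1, Col4a2 and Pdgfra, each lower on slide 1), the 4 arrays of slide 1 lay on one side of the other 5. All 12 epithelial and all 12 fibroblast markers were well above background on all 9 arrays, as were 11 of 12 smooth muscle markers. In bulk tissue, fewer cells of a type and less RNA per cell cannot be told apart.

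Levels below are log2 signals relative to the 75th percentile of the array, and a log2 change is a difference between group means of such levels, given with its standard error (SE). A gene was called when its p, adjusted over all features, was under 0.05 in limma. In the no-tumor group against DMH, 5 of the 35 genes were called (14.3%, against 30.5% of all features). Lum, Postn, Timp3 and Eln rose (16.6% of all features did) and Col15a1 fell (13.8%). Of the 35 genes, 9 had an unadjusted p under 0.05 (44.5% of all features). The median log2 change was 0.16, against 0.08 over all features. After normexp background correction the split of calls was 3 higher and 3 lower instead of 4 and 1, with 29.1% of all features called.

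The 3 comparisons against DMH share the same DMH arrays. In all 6 butyrate arrays against DMH, limma called 0 of 35 genes (9.2% of all features), with 6 at an unadjusted p under 0.05 (31.2%). Without tumor array 2 it called 2 genes (Col15a1 and Lum; 13% of all features), and without tumor array 3 it called 3 (Col15a1, Lum and Postn; 16.5%). The 6 arrays lay wholly above DMH for 3 genes (Lum, Postn and Eln; 14.5% of all features) and wholly below for 3 (Col15a1, Col1a2 and Col4a2; 11.9%), where the share of all features in either direction was 26.3%. In the tumor group against DMH, limma called 0 of 35 (5.7% of all features) and 4 had an unadjusted p under 0.05 (29.9%). Without tumor array 1 the count stayed 0 (4.57% of all features). A separate fit of tumor arrays 2 and 3 with the DMH arrays alone leaves out all of slide 1. It called 3 genes (11.4% of all features), all higher, namely Thy1 (0.59), Col5a2 (0.54) and Col1a1 (0.50). On a second probe of Col1a1 the same tumor arrays (1.14 and 1.63) lay below all DMH arrays (1.74 to 1.96). On a second probe of Thy1 they lay above them (-2.7 and -2.44 against -2.93 to -2.85). Between the butyrate groups, limma called 0 of 35 (13.5% of all features), with 3 at an unadjusted p under 0.05 (34.6%). This test shares its estimate of spread with the DMH arrays. With only the 6 butyrate arrays in the fit, 0 of 21964 features were called.

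**Figure D1:**
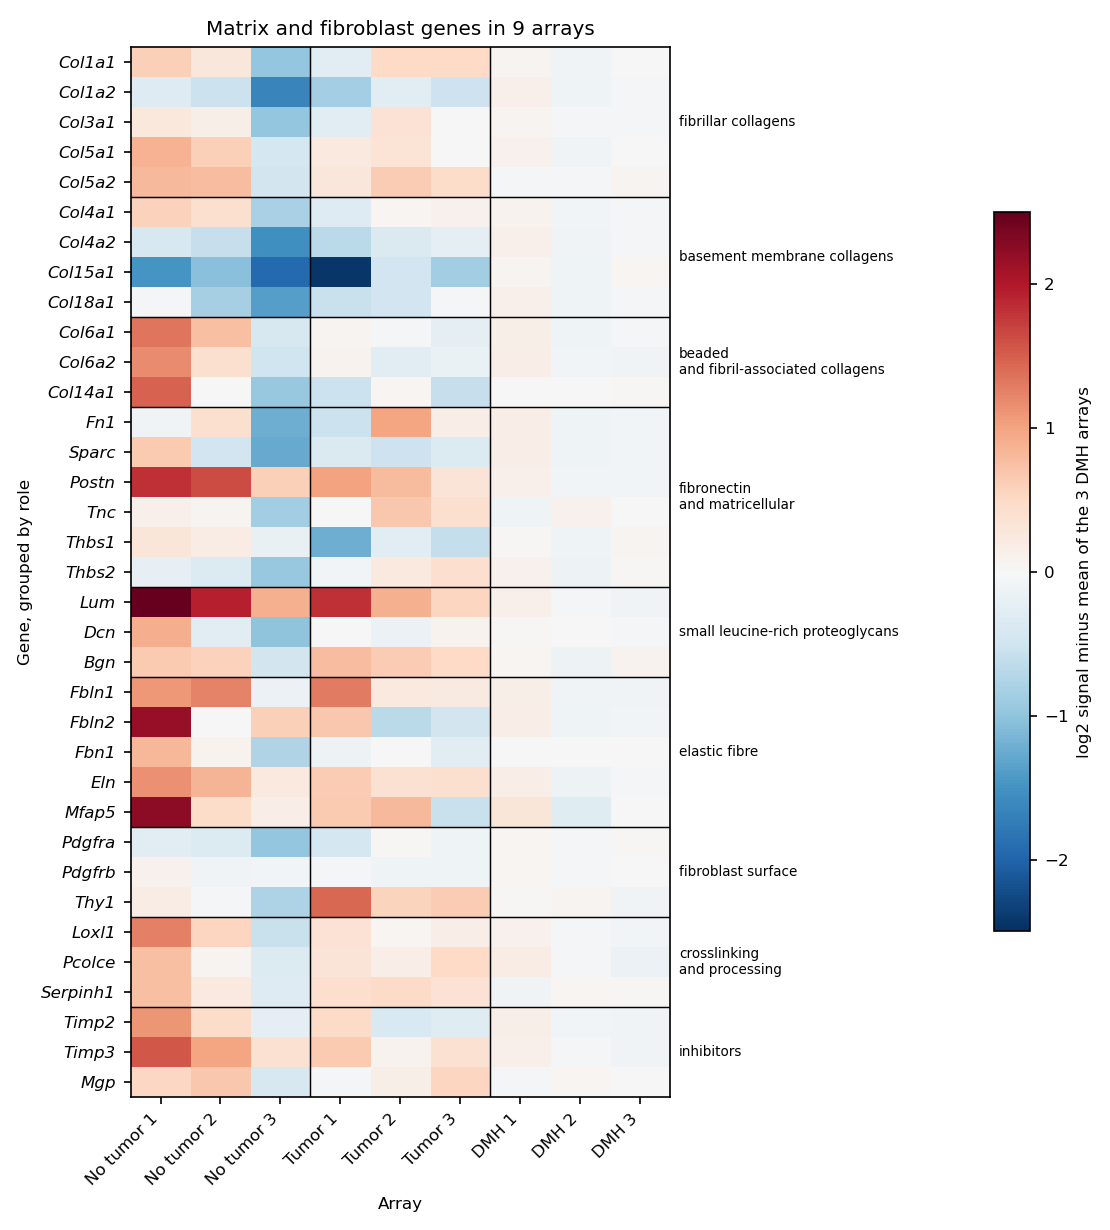
Level of each of the 35 measured genes (rows, grouped by role) on each of the 9 arrays (columns), as the log2 signal minus the mean of the 3 DMH arrays, with red higher and blue lower. The column of no-tumor array 1 is mostly red (28 of 35 genes above the DMH mean) and that of no-tumor array 3 mostly blue (6 of 35), while the DMH columns are near 0.

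The no-tumor arrays were far from each other in these genes. The median SD of the 35 genes was 0.68 in the no-tumor group, 0.281 in the tumor group and 0.108 in the DMH group. Over all features the same medians were 0.267, 0.383 and 0.116, so the matrix genes had a wider spread than the typical feature in the no-tumor group alone. No-tumor array 1 exceeded array 3 in 35 of 35 genes, with a median difference of 1.23, where 52.1% of all features did. No-tumor array 2 exceeded array 3 in 33 of 35 (43.8% of all features). The genes thus moved up or down together from one array to the next within this group.

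Relative to the DMH mean, the median of the 35 genes was 0.75, 0.24 and -0.50 in no-tumor arrays 1, 2 and 3. It was 0.01, 0.08 and 0.08 in the tumor arrays and 0.10, -0.07 and -0.02 in the DMH arrays. Markers of other cell types also differed between the no-tumor arrays. The median of 5 fat cell markers was 0.92 in array 1 against -1.78 and -2.15 in arrays 2 and 3. Their summed level (each marker's linear signal over the array's 75th percentile) was 11.2 to 74.3 in the no-tumor group, 4.7 to 11.7 in the tumor group and 32.5 to 35.8 in DMH. The median of the 2 measured mesothelial markers was 2.60 in array 1 against -1.69 and -0.35, and 1 of them was well above background on every array. Medians of pericyte (1.87, 1.04 and 0.35), endothelial (0.97, 0.39 and 0.26) and neuron and glia markers (1.96, 1.28 and 0.83) fell from array 1 to 3. So did that of smooth muscle markers (1.55, 1.65 and 0.35). Those of epithelial (-0.75, -1.08 and -0.75) and leukocyte markers (0.01, 0.26 and 0.04) did not. The part of these cells in the spread of the matrix genes was not tested.

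Single arrays decided which genes were called against DMH in the no-tumor group. Without no-tumor array 1 the calls were 3 (20.5% of all features) and none of the 5 above (Col18a1 at -1.1, Col4a2 at -1.06 and Sparc at -0.87). Without no-tumor array 3, the lowest, they were 10 (24.7% of all features), all higher, with Lum, Postn, Timp3 and Eln joined by Fbln1, Col6a1, Loxl1, Col5a2, Col5a1 and Bgn. Without no-tumor array 2, DMH array 2 or DMH array 3 the count was 0 (18.1%, 12.9% and 13.3% of all features). It was 2 (Lum and Postn) without DMH array 1 (18.9%) or tumor array 3 (30.2%), the latter through the shared estimate of spread. Eln missed the threshold without tumor array 2 (adjusted p = 0.0547), and Col4a2 passed it without tumor array 1 (-0.84, adjusted p = 0.0485). With DMH arrays 2 and 3, which lay on 1 slide, averaged into 1 sample, and with slide as a random block, the count was 0 (13.2% and 4.58% of all features). The 5 log2 changes kept their sign in each of these fits.

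**Figure D2:**
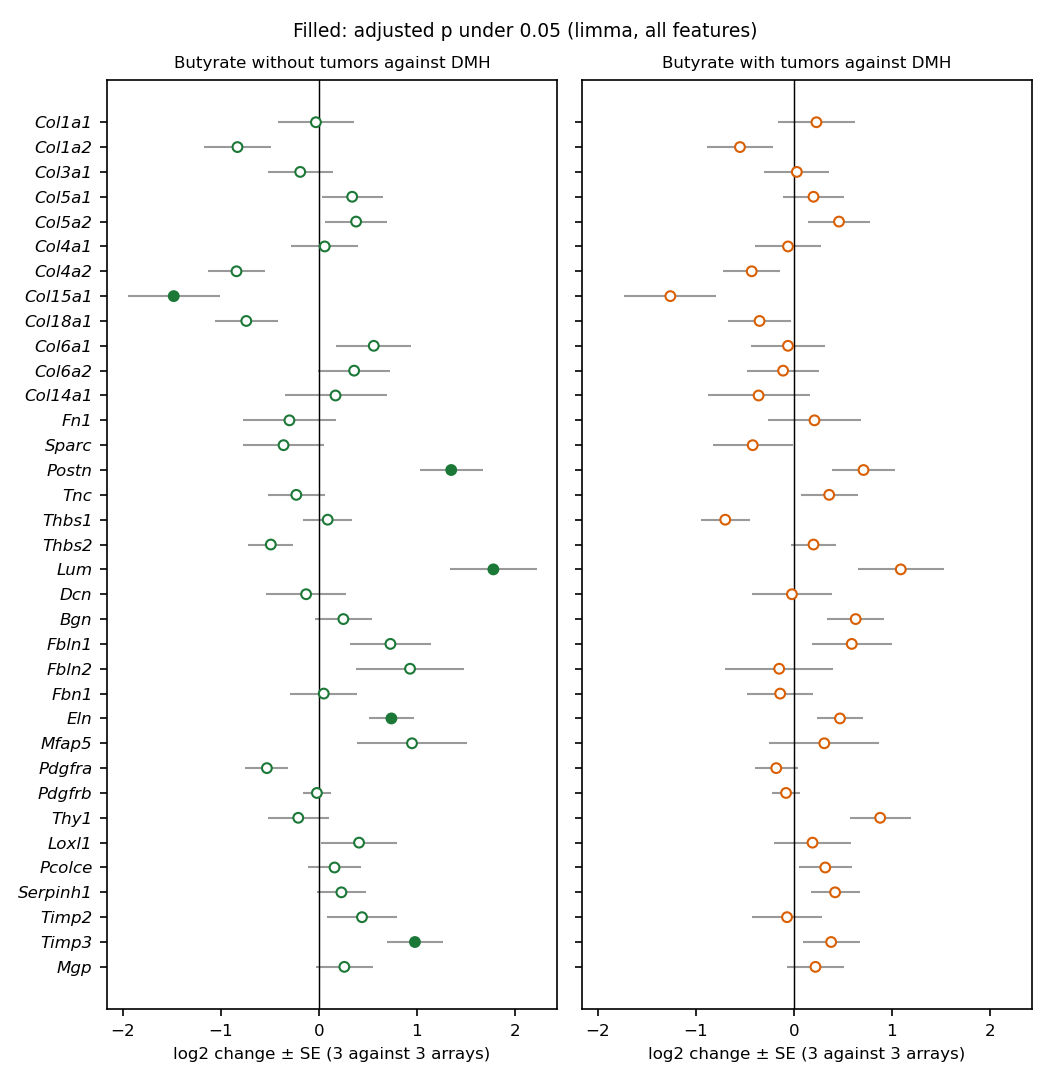
Log2 change of each gene against DMH in the no-tumor group (left) and the tumor group (right), 3 arrays against 3. Points are fitted changes, bars are ± 1 SE, and filled points passed an adjusted p of 0.05. Lum, Postn, Timp3, Eln and Col15a1 are filled on the left and none on the right; with no scaling between arrays Timp3 and Eln turn to -0.10 and -0.34, where the median of all features is -1.0.

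The 5 fibrillar collagen genes were all measured and 0 were called in each of the 4 comparisons. Col1a1, which encodes the major chain of type I collagen, had levels of 4.63, 4.32 and 3.08 in the no-tumor arrays, 3.75, 4.54 and 4.53 in the tumor arrays, and 4.11, 3.96 and 4.05 in DMH. These are levels of its brightest probe. On it no-tumor arrays 1 and 2 and tumor arrays 2 and 3 lay above all DMH arrays. The other butyrate arrays lay below them, so the groups overlapped. The log2 change against DMH over all butyrate arrays was 0.10 ± 0.34 (95% interval -0.66 to 0.86, adjusted p = 0.857). On a second probe all butyrate arrays (-0.56 to 1.63) lay below all DMH arrays (1.74 to 1.96). That probe changed by -1.2 ± 0.45 over all butyrate arrays (limma fit of every probe, adjusted p = 0.112).

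Col3a1, the chain of type III collagen of pliable tissue, had 5.66, 5.55 and 4.43 in the no-tumor arrays, 5.12, 5.77 and 5.40 in the tumor arrays, and 5.46, 5.36 and 5.38 in DMH. No-tumor array 3 was lowest and the groups overlapped. The change over all butyrate arrays was -0.08 ± 0.28 (95% interval -0.72 to 0.56, adjusted p = 0.866), which leaves room for a difference of either sign.

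Col1a2, the partner chain of Col1a1 in type I collagen, had 3.98, 3.77 and 2.64 in the no-tumor arrays, 3.45, 4.02 and 3.78 in the tumor arrays, and 4.43, 4.18 and 4.27 in DMH. All 6 butyrate arrays lay below all 3 DMH arrays. The change was -0.69 ± 0.30 over all butyrate arrays (adjusted p = 0.148) and -0.83 ± 0.34 in the no-tumor group (adjusted p = 0.0907), so it did not pass. The minor chains Col5a1 and Col5a2, which help start fibrils, had changes of 0.27 ± 0.27 and 0.42 ± 0.27 over all butyrate arrays (adjusted p = 0.515 and 0.321).

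Of the 4 basement membrane collagen genes, Col15a1 fell in the no-tumor group and the others were not called. The median change of the 4 was -0.79 in the no-tumor group and -0.39 in the tumor group, the lowest medians of any role in both comparisons. Col15a1 encodes a collagen that links the basement membrane of vessels, nerves and muscle to nearby fibres. Its levels were -3.10, -2.68 and -3.57 in the no-tumor arrays, -4.07, -2.11 and -2.5 in the tumor arrays, and -1.57, -1.75 and -1.59 in DMH. All butyrate arrays were below all DMH arrays, and tumor array 1, on slide 1, was lowest. Its level of -4.07 was near the dimmest signal that counted as well above background on that array (-4.3).

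The log2 change of Col15a1 was -1.48 ± 0.47 in the no-tumor group (SE, 3 against 3 arrays, adjusted p = 0.0436, and 0.00169 to 0.297 over 24 alternatives, with a call in 12). Over the same alternatives the change ran from -2.56 to -0.78. Over all butyrate arrays it was -1.37 ± 0.39 (adjusted p = 0.0573), and in the tumor group -1.26 ± 0.47 (adjusted p = 0.12). Tumor arrays 2 and 3, which lay off slide 1, averaged -0.67 against DMH, and the 4 arrays of slide 1 averaged -1.72.

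Promoter sequence is shown for the 3 called genes whose start is in the RefSeq table used (GRCm38.p6), each as the 250 bases before the start site on the plus strand. Capitals mark a match, on either strand, to 1 of 4 motifs: TATAAA, the GC box GGGCGG, the CCAAT box CCAAT and the AP-1 site TGANTCA. These 4 occur in 12.4%, 32.7%, 33.8% and 6.75% of 32851 promoter windows of this length. The window of Col15a1 (chr4:47207762-47208011) held no match, which says only that these letters are not in it.
Col15a1: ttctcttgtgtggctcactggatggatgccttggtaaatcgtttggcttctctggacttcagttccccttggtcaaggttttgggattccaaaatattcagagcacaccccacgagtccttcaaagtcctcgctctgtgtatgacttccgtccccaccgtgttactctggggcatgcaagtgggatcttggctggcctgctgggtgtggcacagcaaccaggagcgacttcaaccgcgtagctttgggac

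Col4a1 and Col4a2 encode the partner chains of the type IV network. Col4a1 had 3.13, 2.97 and 1.75 in the no-tumor arrays, 2.23, 2.61 and 2.66 in the tumor arrays, and 2.65, 2.49 and 2.54 in DMH. On this brightest probe the butyrate arrays lay on both sides of DMH, with a change of 0.00 ± 0.29 (95% interval -0.65 to 0.65, adjusted p = 0.995). A second probe ran from 0.78 to 2.14 in the butyrate arrays and from 2.08 to 2.37 in DMH. It changed by -0.6 ± 0.29 over all butyrate arrays (limma fit of every probe, adjusted p = 0.186).

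Col4a2 had 1.42, 1.24 and 0.27 in the no-tumor arrays, 1.14, 1.45 and 1.56 in the tumor arrays, and 1.95, 1.74 and 1.77 in DMH. All butyrate arrays lay below DMH. The change was -0.84 ± 0.29 in the no-tumor group (adjusted p = 0.059) and -0.64 ± 0.28 over all butyrate arrays (adjusted p = 0.151), so it did not pass. A second probe of Col4a2 overlapped, at -1.45 to 0.02 in the butyrate arrays and -0.3 to 0.03 in DMH. It changed by -0.24 ± 0.32 over all butyrate arrays (limma fit of every probe, adjusted p = 0.623). Col18a1, the source of endostatin, had -0.74 ± 0.32 in the no-tumor group (adjusted p = 0.11) and -0.35 ± 0.32 in the tumor group (adjusted p = 0.488).

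Within each chain pair the difference between arrays depended on the probe. The pairs were chosen after their values were seen. With the brightest probes, the change over all butyrate arrays against DMH was lower for Col1a2 than for Col1a1 by a log2 of -0.79, and lower for Col4a2 than for Col4a1 by -0.63. With the second probe of Col1a1 the first difference was 0.51, and with the second probes of both type IV genes the other was 0.35. Neither pair thus had a direction that held over its probes.

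Of the beaded and fibril-associated collagens, Col6a1, Col6a2 and Col14a1 were measured and 0 were called. Col6a1 and Col6a2, chains of the beaded filaments around cells, had changes of 0.56 ± 0.38 and 0.36 ± 0.37 in the no-tumor group and of -0.06 ± 0.38 and -0.11 ± 0.37 in the tumor group (adjusted p = 0.284 to 0.927). Col14a1, a collagen on fibril surfaces, ran from -1.44 to 1.00 in the no-tumor arrays and from -0.50 to -0.46 in DMH. Without no-tumor array 3, Col6a1 was called between the butyrate groups (-1.11, adjusted p = 0.0408), against -0.63 ± 0.38 (adjusted p = 0.272) with it.

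Among 6 genes of fibronectin and matricellular proteins, Postn rose in the no-tumor group. Postn encodes periostin, a protein of fibroblasts that helps cross-link collagen. It had 3.59, 3.40 and 2.38 in the no-tumor arrays, 2.78, 2.57 and 2.10 in the tumor arrays, and 1.89, 1.71 and 1.72 in DMH. All 6 butyrate arrays lay above all 3 DMH arrays, and no-tumor array 3 lay below tumor arrays 1 and 2.

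The log2 change of Postn was 1.35 ± 0.32 in the no-tumor group (adjusted p = 0.0176, and 0.00086 to 0.774 over 24 alternatives, with a call in 17). In the tumor group it was 0.71 ± 0.32 (adjusted p = 0.182), and over all butyrate arrays 1.03 ± 0.33 (adjusted p = 0.0736). The difference between the butyrate groups did not pass (-0.64 ± 0.32, adjusted p = 0.194). Tumor arrays 2 and 3 averaged 0.56 above DMH and the arrays of slide 1 averaged 1.26. The RefSeq table has a pair of start sites for Postn. The window of the second (chr3:54360857-54361106) held a TATAAA match from base -26 to -21, and that of the first held no match.
Postn: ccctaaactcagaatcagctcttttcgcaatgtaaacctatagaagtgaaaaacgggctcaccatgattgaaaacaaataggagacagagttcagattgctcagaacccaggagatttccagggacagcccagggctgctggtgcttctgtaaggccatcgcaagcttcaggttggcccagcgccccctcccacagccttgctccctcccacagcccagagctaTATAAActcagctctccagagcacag

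Thbs1, a thrombospondin that activates latent TGF-beta, had 0.33, 0.21 and -0.16 in the no-tumor arrays, -1.19, -0.26 and -0.56 in the tumor arrays, and 0.06, -0.06 and 0.10 in DMH. All tumor arrays lay below all no-tumor arrays. The difference between the butyrate groups was -0.80 ± 0.25 (adjusted p = 0.0681), and -1.32 (adjusted p = 0.074) with slide as a fixed block, which is tumor array 1 against the no-tumor arrays of its slide. Without tumor array 2 it was called (-1.0, adjusted p = 0.0444).

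Thbs2, a related thrombospondin of fibroblasts, had -1.18, -1.32 and -1.93 in the no-tumor arrays, -1.05, -0.73 and -0.57 in the tumor arrays, and -0.88, -1.11 and -0.96 in DMH. All tumor arrays lay above all no-tumor arrays, the opposite order from Thbs1. The difference between the butyrate groups was 0.69 ± 0.23 (adjusted p = 0.0761), and 0.43 (adjusted p = 0.512) with slide as a fixed block. Without tumor array 1 it was called (0.83, adjusted p = 0.0317), as were Col15a1 (0.81, adjusted p = 0.049) and 35.4% of all features. In that fit all tumor arrays lay on slide 2 and all no-tumor arrays on slide 1, so group and slide cannot be told apart.

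Tnc, which encodes the tissue-remodelling protein tenascin C, had 0.26, 0.21 and -0.72 in the no-tumor arrays, 0.14, 0.82 and 0.56 in the tumor arrays, and 0.04, 0.26 and 0.15 in DMH. The butyrate groups overlapped through tumor array 1, and their difference was 0.59 ± 0.29 (adjusted p = 0.187). Fn1 (fibronectin) had -0.05 ± 0.42 and Sparc, a collagen-binding protein, -0.39 ± 0.34 over all butyrate arrays (adjusted p = 0.95 and 0.463).

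Of the 3 small leucine-rich proteoglycans, Lum rose in the no-tumor group and had the highest change of the 35 genes there. Lum encodes lumican, which spaces collagen fibrils. It had 3.25, 2.66 and 1.61 in the no-tumor arrays, 2.56, 1.62 and 1.27 in the tumor arrays, and 0.86, 0.68 and 0.65 in DMH. All 6 butyrate arrays were above all DMH arrays, and 3 of the 4 highest lay on slide 1.

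The log2 change of Lum was 1.78 ± 0.44 in the no-tumor group (95% interval 0.77 to 2.80, adjusted p = 0.0199, and 0.000561 to 0.439 over 24 alternatives, with a call in 17). It was 1.09 ± 0.44 in the tumor group (adjusted p = 0.145), and 1.43 ± 0.42 over all butyrate arrays (adjusted p = 0.0592). The butyrate groups did not differ at the threshold (-0.69 ± 0.44, adjusted p = 0.291). On slide 1 tumor array 1 was 0.05 from the no-tumor mean, while tumor arrays 2 and 3 averaged -1.07 against that mean and 0.72 against DMH.

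The other proteoglycans of this role did not pass. Dcn (decorin, which binds collagen and TGF-beta) had -0.08 ± 0.34 and Bgn (biglycan, its close relative) 0.44 ± 0.27 over all butyrate arrays (adjusted p = 0.897 and 0.286). Dcn ran from 3.73 to 5.64 in the no-tumor arrays, on both sides of the DMH range of 4.70 to 4.76.

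**Figure D3:**
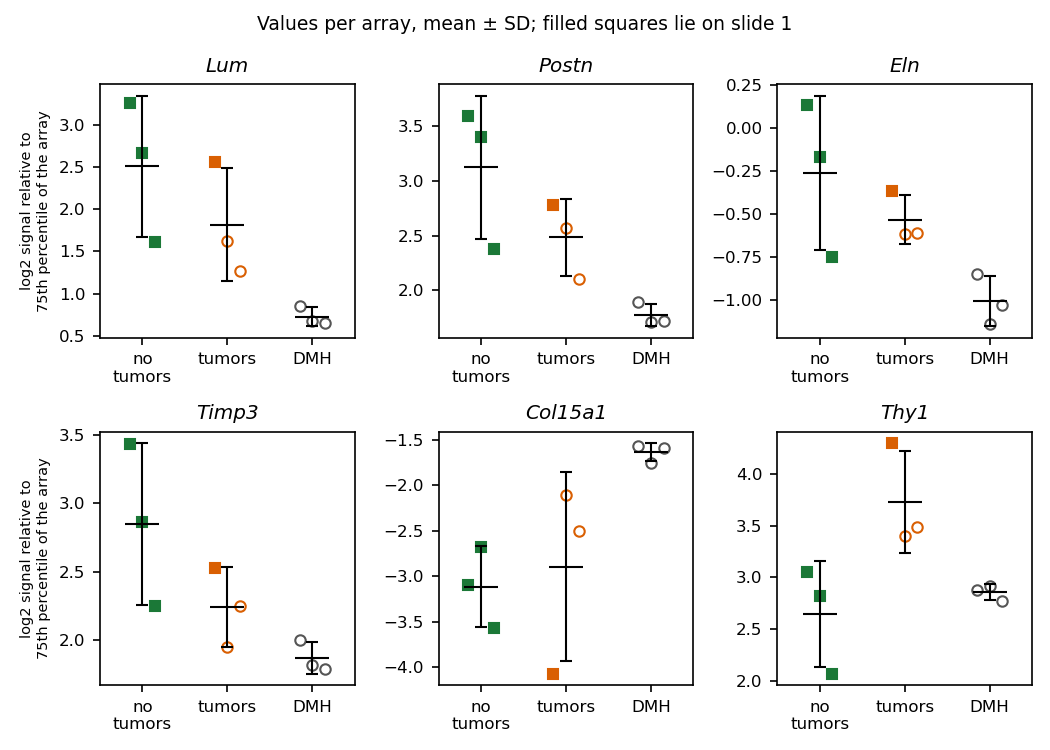
Levels per array (log2 signal relative to the 75th percentile of the array) of the 5 called genes and Thy1, with the mean ± SD of each group of 3. Filled squares are arrays of slide 1. For Lum, Postn and Eln all butyrate arrays lie above the 3 DMH arrays, for Col15a1 all lie below, and for Timp3 tumor array 2 (1.95) lies under DMH array 1 (2.00).

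Of the 5 measured elastic fibre genes, Eln rose in the no-tumor group, although with no scaling between arrays its change was -0.34, where the median of all features was -1.0. Eln encodes tropoelastin, the core of the fibre. It had 0.13, -0.17 and -0.75 in the no-tumor arrays, -0.37, -0.62 and -0.61 in the tumor arrays, and -0.85, -1.14 and -1.03 in DMH. All butyrate arrays lay above DMH, with no-tumor array 3 nearest.

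The log2 change of Eln was 0.74 ± 0.23 in the no-tumor group (adjusted p = 0.0425, and 0.00278 to 0.72 over 24 alternatives, with a call in 11). It was 0.47 ± 0.23 in the tumor group (adjusted p = 0.21) and 0.61 ± 0.22 over all butyrate arrays (adjusted p = 0.0998). Tumor arrays 2 and 3 averaged 0.39 above DMH.

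Fbln2, a fibulin of vessel walls and elastic tissue, had 3.38, 1.21 and 1.80 in the no-tumor arrays, 1.88, 0.54 and 0.76 in the tumor arrays, and 1.37, 1.1 and 1.15 in DMH. No-tumor array 1 stood highest and tumor arrays 2 and 3 lowest. The difference between the butyrate groups was -1.07 ± 0.55 (adjusted p = 0.197), and -0.26 within slide 1. Fbln1 had 0.73 ± 0.41 and Mfap5, a microfibril protein, 0.95 ± 0.56 in the no-tumor group (adjusted p = 0.203 and 0.221). The microfibril gene Fbn1 (fibrillin) had 0.05 ± 0.34 (adjusted p = 0.914).

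None of the crosslinking and processing genes passed in the 4 comparisons, which limma tested for 3 of the 4 listed (0 at an unadjusted p under 0.05). Loxl1, the lysyl oxidase that acts on elastin, had 0.94, 0.23 and -0.85 in the no-tumor arrays and lay between -0.25 and 0.06 in the tumor arrays and between -0.37 and -0.19 in DMH. Its change over all butyrate arrays was 0.30 ± 0.33 (adjusted p = 0.558). Pcolce, which speeds the trimming of procollagen, had 0.24 ± 0.24 (adjusted p = 0.516). Serpinh1, the collagen chaperone Hsp47, had 0.32 ± 0.23 (adjusted p = 0.356).

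Of the 3 inhibitor genes, Timp3 rose in the no-tumor group, although with no scaling between arrays its change was -0.10, above the median of all features there (-1.0). Timp3 encodes an inhibitor of metalloproteinases that stays bound to the matrix. It had 3.43, 2.86 and 2.25 in the no-tumor arrays, 2.53, 1.95 and 2.25 in the tumor arrays, and 2.00, 1.82 and 1.79 in DMH. The no-tumor arrays all lay above DMH, and the tumor arrays overlapped it.

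The log2 change of Timp3 was 0.98 ± 0.29 in the no-tumor group (adjusted p = 0.0367, and 0.00192 to 0.915 over 24 alternatives, with a call in 14). It was 0.38 ± 0.29 in the tumor group (adjusted p = 0.409) and 0.68 ± 0.30 over all butyrate arrays (adjusted p = 0.16). Timp2, a soluble inhibitor of the same family, had 0.44 ± 0.36 and Mgp, an inhibitor of calcification, 0.26 ± 0.29 in the no-tumor group (adjusted p = 0.361 and 0.51). The window of Timp3 (chr10:86300162-86300411) held a GC box on the minus strand from base -15 to -10, read here as CCGCCC.
Timp3: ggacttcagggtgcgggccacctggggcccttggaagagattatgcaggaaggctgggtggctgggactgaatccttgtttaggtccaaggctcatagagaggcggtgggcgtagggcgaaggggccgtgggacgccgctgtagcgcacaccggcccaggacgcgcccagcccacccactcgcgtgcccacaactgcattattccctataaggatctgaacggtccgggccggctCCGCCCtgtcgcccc

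The 3 fibroblast surface genes were not called. Thy1, a glycoprotein of fibroblasts that neurons and T cells also carry, had 3.05, 2.82 and 2.07 in the no-tumor arrays, 4.30, 3.40 and 3.49 in the tumor arrays, and 2.88, 2.92 and 2.77 in DMH. All tumor arrays lay above every other array. The difference between the butyrate groups was 1.08 ± 0.31 (adjusted p = 0.0532), and 1.65 (adjusted p = 0.0903) with slide as a fixed block. It was called with quantile scaling (1.28, adjusted p = 0.0322).

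Leukocyte markers were high on the same tumor array 1 on which Thy1 was highest. The median of 5 such markers relative to DMH was 2.70 there, 0.05 and 0.88 in tumor arrays 2 and 3, and 0.01 to 0.26 in the no-tumor arrays. Their summed level was 11.4 to 16.4 in the no-tumor group, 14.4 to 84.8 in the tumor group and 10.8 to 11.9 in DMH, and their part in the Thy1 difference was not tested. Pdgfra and Pdgfrb, the receptors that mark fibroblasts and pericytes, had changes of -0.35 ± 0.22 and -0.05 ± 0.14 over all butyrate arrays (adjusted p = 0.299 and 0.829).

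Several genes had a second probe whose change differed in size or sign from that of the brightest. For Sparc both were negative, with a wide gap in size. Its second probe had -0.75, 0.08 and -0.19 in the no-tumor arrays, 0.19, 3.66 and 3.30 in the tumor arrays, and 3.69, 3.5 and 3.46 in DMH. The 4 arrays of slide 1 were thus far below the other 5, by -3.69 on average, while the brightest probe, at 2.39 to 4.31 on the no-tumor arrays and 3.54 to 3.83 in DMH, showed no such split. In a fit of every probe the second probe fell in the no-tumor group (-3.84 ± 0.79, adjusted p = 0.0108), against -0.36 ± 0.41 (adjusted p = 0.521) for the brightest.

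A dim second probe of Fbn1 likewise split by slide, at -6.52 to -4.74 on slide 1 and -4.00 to -3.33 elsewhere. It was well above background on 1 of 3 no-tumor arrays, 2 of 3 tumor arrays and 3 of 3 DMH arrays, and fell in the no-tumor group (-2.20 ± 0.45, adjusted p = 0.0105). The second probe of Col18a1 fell there too (-1.47 ± 0.47, adjusted p = 0.0462), in the same direction as the brightest. That of Col1a1 had -1.41 ± 0.53 (adjusted p = 0.0745), where the brightest had -0.03 ± 0.39. Over all 48 probes of the set that passed the filter, 5 were split by slide 1, each lower there, against 28.0% of 28521 probes on the array in either direction.

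Thbs1 and Thy1 had second probes of the same direction as the brightest in the tumor group. The brighter of the dim probes of Thbs1 fell in the tumor group against DMH (-1.05 ± 0.20, adjusted p = 0.0373), and also in the no-tumor group (-0.67 ± 0.20, adjusted p = 0.0377), where the brightest had 0.09 ± 0.25. That of Thy1 was higher in the tumor group than in the no-tumor group (0.79 ± 0.19, adjusted p = 0.0344).

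**Figure D4:**
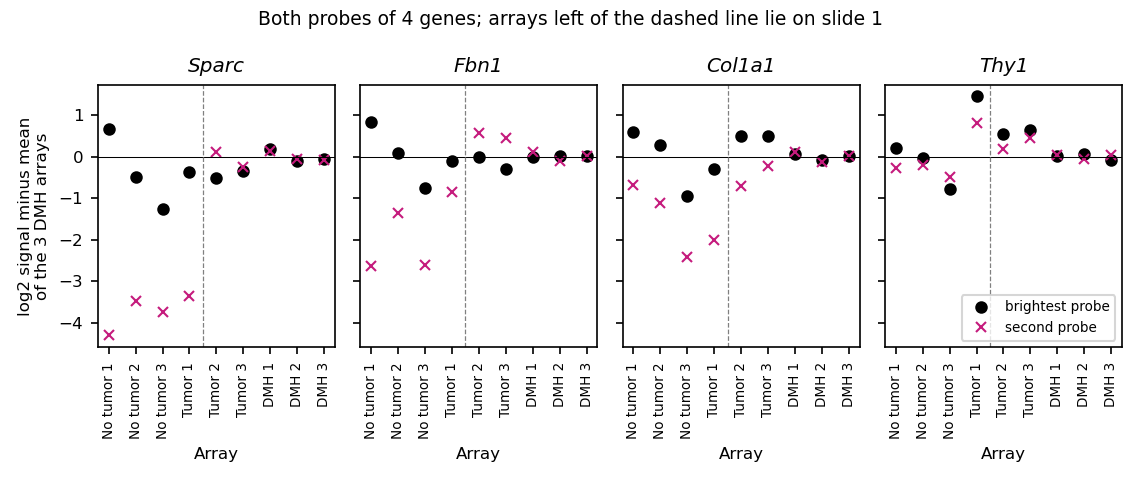
Brightest probe (black circles) and second probe (pink crosses) of Sparc, Fbn1, Col1a1 and Thy1 on each array, as the log2 signal minus the mean of the 3 DMH arrays. Arrays left of the dashed line lie on slide 1. The second probe of Sparc is low on all 4 of those arrays and near 0 on the other 5, the brightest is not, and for Thy1 both probes are highest in tumor array 1.

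The median levels of smooth muscle, enteric neuron and glia, and pericyte markers lay above the DMH mean on all 6 butyrate arrays, and that of epithelial markers below it. Single DMH arrays ran from -0.32 to 0.4 for smooth muscle, which overlapped the butyrate arrays (0.35 to 1.65). They ran from -0.11 to 0.29 for neuron and glia, which also overlapped (0.19 to 1.96). Pericyte medians (-0.09 to 0.09 against 0.14 to 1.87) and epithelial medians (-0.05 to 0.07 against -1.26 to -0.53) did not overlap. In the no-tumor group 6 of 12 smooth muscle markers, 5 of 12 neuron and glia markers and 3 of 5 pericyte markers rose. Of 12 epithelial markers 6 fell and 1 rose. Of all features 16.6% rose and 13.8% fell (30.5% called). Over all butyrate arrays 1 smooth muscle, 4 neuron and glia and 1 pericyte marker rose, and 5 epithelial markers fell (9.2% of all features called). In the tumor group 0 markers of the first 3 lists were called, and 5 epithelial markers fell (5.7% of all features called). The summed smooth muscle level was 402.0 to 891.4 in the no-tumor group, 456.7 to 912.1 in the tumor group and 232.1 to 397.4 in DMH. The summed epithelial level was 781.0 to 936.9, 477.6 to 916.9 and 1465.8 to 1652.7 in the same order. Smooth muscle cells and pericytes also make collagens, elastin and periostin. The part of these cells in the changes of Lum, Postn, Eln, Timp3 and Col15a1 was not tested.

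Fibroblast markers, 8 of 12 of which are among the 35 genes, lay on both sides of the DMH mean. Their median relative to DMH was 0.15, -0.19 and -0.97 in the no-tumor arrays and -0.04, 0.04 and 0.00 in the tumor arrays. The smooth muscle median was 1.55, 1.65 and 0.35 in the no-tumor arrays and 1.55, 0.93 and 0.71 in the tumor arrays. The summed fibroblast level was 68.8 to 177.3 in the no-tumor group, 133.2 to 154.0 in the tumor group and 131.7 to 139.4 in DMH, so the groups overlapped.

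**Figure D5:**
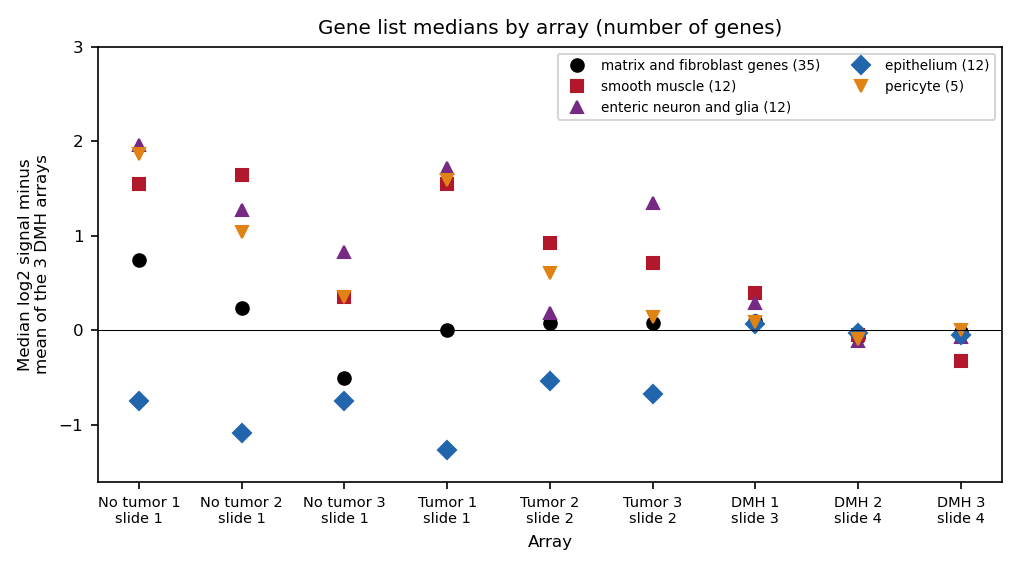
Median log2 signal minus the mean of the 3 DMH arrays, per array, for the 35 matrix and fibroblast genes and for markers of smooth muscle, enteric neurons and glia, epithelium and pericytes (number of genes in brackets). The median of the matrix genes runs from 0.75 to -0.50 over the no-tumor arrays, and the epithelial median is below -0.50 on all 6 butyrate arrays. The smooth muscle median is 0.35 or more on all 6, and 0.4 on DMH array 1.

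Of 73 further genes of matrix synthesis, assembly and sensing, 69 were measured. Over all butyrate arrays against DMH, 4 rose and 1 fell (7.25%, against 9.2% of all features). Itga8, an integrin subunit of muscle and other mesenchymal cells that binds fibronectin, rose by 1.68 ± 0.35 (adjusted p = 0.0303). Col7a1, the collagen of anchoring fibrils, rose by 0.90 ± 0.23 (adjusted p = 0.0436). Col28a1, a minor collagen well above background on 1 of 3 DMH arrays, rose by 1.12 ± 0.29 (adjusted p = 0.0447).

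Col4a3, a chain of a restricted type IV network, was well above background on 5 of 6 butyrate arrays and 0 of 3 DMH arrays and was at least 1.66-fold higher (adjusted p = 0.0407). That bound takes, for each DMH array, the dimmest signal that still counted as well above background. Pcolce2, a helper of procollagen trimming related to Pcolce, fell (-1.34 ± 0.31, adjusted p = 0.035).

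In the no-tumor group against DMH, 7 of the 69 rose and 7 fell (20.3%, against 30.5% of all features). Itga8 (2.07 ± 0.33, adjusted p = 0.00473) and Col28a1 (1.41 ± 0.28, adjusted p = 0.00941) rose. P4ha1, a subunit of the prolyl hydroxylase that stabilises the collagen helix, rose by 0.86 ± 0.17 (adjusted p = 0.00888). Ppib, a cyclophilin that helps procollagen fold, fell (-0.76 ± 0.16, adjusted p = 0.0121), as did Pcolce2 (-1.52 ± 0.34, adjusted p = 0.0143). Col17a1, the collagen of epithelial hemidesmosomes, fell as well (-2.34 ± 0.53, adjusted p = 0.0144). Of 15 genes of collagen synthesis, 1 was called higher and 3 lower (26.7%, near the share of all features).

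In the tumor group against DMH 1 of the 69 passed (1.45%, against 5.7% of all features), the epithelial syndecan gene Sdc1 (-1.07 ± 0.25, adjusted p = 0.0467). Between the butyrate groups 3 were higher and 2 lower with tumors (7.25%, against 13.5% of all features). Ltbp2, which binds microfibrils (1.18 ± 0.28, adjusted p = 0.0345), Lama5, a laminin chain of the epithelial basement membrane (1.16 ± 0.28, adjusted p = 0.0362), and Col17a1 (1.99 ± 0.53, adjusted p = 0.0436) were higher. P4ha1 (-0.62 ± 0.17, adjusted p = 0.0462) and P4hb, its partner subunit (-0.64 ± 0.18, adjusted p = 0.0469), were lower. With only the 6 butyrate arrays in the fit, none of these genes passed, as 0 of 21964 features did.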

How the data were processed

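Per the file headers, gProcessedSignal is spot intensity after background subtraction and spatial detrending by Agilent Feature Extraction 10.5.1.1 (the version in the submitters' processing notes), with no scaling between arrays. The authors deposited a table of log2 values of 21829 probes, which differ from log2 gProcessedSignal by a constant for each array (SD of the difference at most 0.0091). What the constant is stays unknown, and the column medians were 2.71 to 3.20. The 1639 control spots and the outlier spots were left out, and no spot was saturated.

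The log2 of gProcessedSignal was taken relative to each array's 75th percentile. Probes well above background on at least 3 arrays and with at least 2 values per group were kept (28521), and the probe with the highest mean stood for a gene. RefSeq accessions named 26933 of 41174 probes. limma 3.58.1 in R 4.3.3 (lmFit, eBayes, 2-sided, Benjamini-Hochberg over 21964 features) compared all butyrate with DMH in a fit of 2 groups, and made the other comparisons in 1 fit of 3 groups. Duplicate correlation used statmod 1.5.0. Genes printed with every array's value were those called, the 3 highest and 3 lowest changes per comparison, and Col1a1, Col3a1 and Col4a1. Of the other matrix genes, called ones were named, up to 6 a comparison. The members, lists and tests were chosen with earlier results of these data known. The fit was tested on simulated data. Scaling, background correction, filters, probe choice, blocks and each array were varied. The number of arrays limits the precision.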

Additional observations from a re-analysis of the deposited data

Results flagged for a closer look

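Among the 6 butyrate arrays, 3 of the 35 genes checked had an array far from the rest. The gap to its nearest neighbour was large against the whole range. Chance gives about 1 in 20 for arrays that are alike. These arrays come from both butyrate groups and from slides 1 and 2, and the genes moved together in the no-tumor group. The share of all features was not counted. Col4a2 was at 0.27 in no-tumor array 3 (gap over range 0.67), Bgn at -2.43 in no-tumor array 3 (0.77), and Pdgfrb at 2.08 in no-tumor array 1 (0.76). The whole range of Pdgfrb was narrow, from 1.86 to 2.08.

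Differences between the butyrate groups with tumors and without passed the test for Ltbp2 (1.18), Lama5 (1.16), Col17a1 (1.99), P4ha1 (-0.62) and P4hb (-0.64), all log2 changes with adjusted p from 0.0345 to 0.0469. The test shares its estimate of spread with the DMH arrays. Over all features their median SD was 0.116, against 0.267 without tumors and 0.383 with tumors. With only the 6 butyrate arrays in the fit, 0 of 21964 features passed. In the fit of every probe the second probe of Thy1 (0.79, adjusted p = 0.0344) and the dim second probe of Fbn1 (2.25, adjusted p = 0.023) passed too. The Fbn1 difference also separates the slides, since its no-tumor arrays all lay on slide 1 and 2 of the 3 tumor arrays did not. Within slide 1 its values were -6.52, -5.23 and -6.50 without tumors and -4.74 in tumor array 1.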

How the results depend on the processing

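Of 3710 recomputed member values, 3363 kept their direction and call, 83 passed where the reported value did not and 52 no longer passed. A further 209 turned sign with neither the reported nor the recomputed value called, and 3 turned sign with a call in at least 1 of them. Those 3 were in the no-tumor group against DMH. They were Timp3 (-0.10, adjusted p = 0.915) and Eln (-0.34, adjusted p = 0.72) with no scaling, where the median of all features was -1.0, and Fbn1 (-1.07, adjusted p = 0.0303) with the mean of its probes.

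For all butyrate against DMH, 0 genes were called as reported (9.2% of all features). The count was 1 with quantile scaling (8.2%), normexp (7.99%), the authors' values (7.01%) or a trend and robust prior (10.1%). The filter on all 9 arrays gave 2 (13%) and array weights gave 10 (55.1%). All 3 groups in 1 fit gave 3 (5052 of 21964 features), as did leaving out the butyrate arrays of slide 1 (11.4%). A threshold of 0.1 gave 4 (20.7%). Leaving out each array gave 0 to 3 (0.0319% to 16.5%). For the no-tumor group against DMH the 5 calls became 0 with no scaling (7.06%), 2 with dim probes kept (15.1%) and 11 with array weights (58.1%). They became 0 with slide as a random block (4.58%), 0 with DMH arrays 2 and 3 averaged (13.2%), 0 at a threshold of 0.01 (9.71%) and 8 at 0.1 (42.4%). With each array left out they were 0 to 10 (12.9% to 45.3%). For the tumor group against DMH the 0 calls became 2 with the authors' values (11.4%) and 3 without slide 1 (11.4%). They stayed 0 with each array left out in turn (0.0182% to 8.16%). Between the butyrate groups the 0 calls (13.5%) became 1 with quantile scaling (10.8%), the filter on all 9 arrays (16.2%), the mean of probes (12.7%) or a trend and robust prior (14.9%). They became 2 with the authors' values (25.6%) or slide as a random block (10.2%). They became 3 with normexp (12.4%), array weights (33.9%) or a threshold of 0.1 (25.9%). With each array left out they were 0 to 2 (0.806% to 35.4%).

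With the replicate number as a block the calls were 0, 5, 0 and 1 (Thy1, adjusted p = 0.0422, between the butyrate groups). Of all features 2.65%, 31.3%, 2.17% and 12.8% were called in those fits. The correlations of same-numbered arrays ran from -0.01 to 0.26 and were not all over 0.1, so the numbers are not taken to pair arrays. The causes of these shifts were not tested. Signal over background limits the dim probes of Fbn1 and Col4a3, and 3 arrays a group limit all tests.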
